A study of Arabidopsis thaliana with 12 samples.

Results

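Transcript levels of 5 Arabidopsis thaliana genes of mitochondrial respiration and inner membrane structure were followed through 12 single-colour arrays of total RNA. They are MIC60 (AT4G39690), ETFQO (AT2G43400), the 24 kDa subunit of complex I (AT4G02580), the mitochondrial glycoprotein family member AT4G31930 and AT5G06410, which assists iron-sulfur cluster assembly as a co-chaperone. Of the 3439 probes on the array, 692 were annotated with exactly 1 gene, and each of the 5 genes had 1 such probe and was listed on no other probe. The genes were picked with their values in the 2 groups already known, so the levels below are a description and carry no test. The annotation gives a name for ETFQO only; the roles of the other 4 are background knowledge.

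Of the arrays, 6 held wild type (WT) RNA and 6 held RNA of psah2, a mutant that its submitters describe as lacking PSI-H2, a small subunit of photosystem I. Both were of ecotype Columbia 0 and nothing else distinguishes the groups in the labels. Tissue, age, growth conditions and the nature of the psah2 allele are not given in the sources used here. Whether the 6 samples of each genotype are separate plants or repeat measurements is not stated, so the p-values measure only how far these samples differ, and that spread can be technical. Of 11 listed markers of green tissue 3 had a 1-gene probe, each above 0 on all 12 arrays, with a summed intensity of 13.7 to 21.2 in WT and 44.6 to 64.2 in psah2. None of the 3 root markers and none of the 7 seed markers had a 1-gene probe. Fewer cells of a type and less RNA per cell cannot be told apart in bulk RNA.

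Plant mitochondria pass electrons from complex I and from several side entries to ubiquinone, and from there to cytochrome c oxidase or to an alternative oxidase. The complexes sit mostly in cristae, folds of the inner membrane whose necks are held by the MICOS complex, of which MIC60 is the core. ETFQO is a side entry: it takes electrons that the electron-transfer flavoprotein collects from the breakdown of branched-chain amino acids and lysine, which leaves use in prolonged darkness. Several of these enzymes carry iron-sulfur clusters, which a scaffold protein and its chaperones assemble in the matrix. In leaves respiration runs beside photosynthesis and shares reducing equivalents with it.

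The arrays themselves differed between the groups. Deposited intensities run from 0 to 100. Their median was 0.304 to 0.379 on WT arrays and 0.0904 to 0.0995 on psah2 arrays. The means lay closer together, at 0.864 to 1.03 on WT arrays and 0.757 to 0.845 on psah2 arrays. Probes above 0 but below 0.1 made up 5.58% to 7.88% of a WT array and 29.4% to 30.9% of a psah2 array. Between 13.0% and 13.7% of the probes were listed at 0 on a WT array and between 20.1% and 22.5% on a psah2 array. Array set and genotype cannot be told apart. An intensity of 0 is not read as an absent transcript here: AT5G47030, which the list of mitochondrial genes used here holds under the ATP synthase, was at 0 on all 12 arrays. Levels are therefore given as deposited, as the position of a probe within its own array (the percent of all probes that were lower), and as log2 values after quantile normalization, with values at 0 left missing.

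All 5 genes were above 0 on all 6 WT arrays, so that none of their 30 WT values was 0. In psah2, 20 of their 30 values were 0. ETFQO, the 24 kDa subunit and AT4G31930 were at 0 on all 6 psah2 arrays, AT5G06410 was at 0 on 2 of them, and MIC60 was above 0 on all 6. For 4 of the 5 genes every deposited psah2 intensity lay below every WT intensity. The same held for 57.3% of all probes, and since these genes were chosen on this contrast nothing is read from their count.

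**Figure D1:**
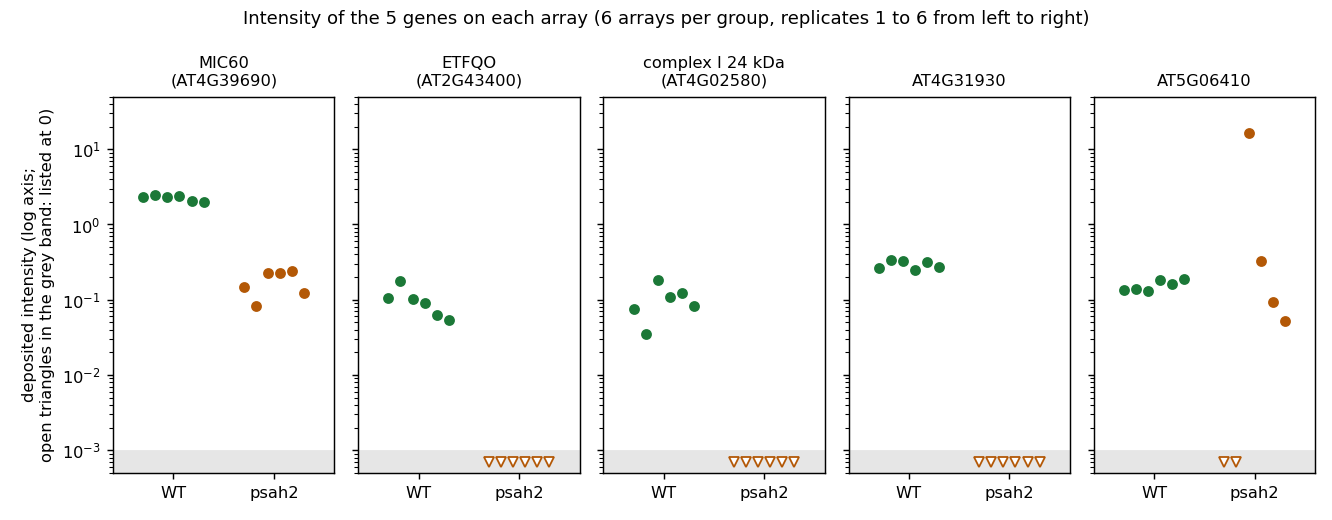
Deposited intensity (log axis) of the 5 genes on each of the 6 WT and 6 psah2 arrays, 1 point per array, with values listed at 0 drawn as open triangles in the grey band. Of the 5 genes only MIC60 is above 0 on all 12 arrays; ETFQO, the 24 kDa subunit and AT4G31930 are at 0 on every psah2 array, and AT5G06410 ranges from 0 to 16.5 in psah2.

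MIC60 shapes the cristae by bridging the inner membrane to the outer one, and in Arabidopsis it also takes part in moving lipids between membranes. Its deposited WT intensities were 2.33, 2.46, 2.33, 2.37, 2.03 and 2.01 on replicates 1 to 6. On the psah2 arrays they were 0.146, 0.0827, 0.225, 0.229, 0.245 and 0.123. The groups did not overlap, and the lowest WT value was 8.23 times the highest psah2 value. The WT mean was 2.26 ± 0.19 and the psah2 mean 0.175 ± 0.067 (each SD, n = 6), a ratio of 12.9.

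The difference of MIC60 was larger than that of the array as a whole. In WT it stood above 94.8% to 95.4% of all probes, and in psah2 above 46.8% to 73.2%, again without overlap. Its normalized log2 values did not overlap either. Normalized groups that did not overlap, with psah2 below, were found for 25.4% of the tested probes. No such share was computed for positions. After quantile normalization its log2 level was 1.14 in WT and -1.92 in psah2, a log2 difference of -3.06 (SE 0.21), or 8.36-fold lower. The median log2 difference of the 2643 probes in the fit was -0.26, and 0.454% of these probes had a lower difference than MIC60. As deposited the log2 difference was -3.79 beside a median of -1.64 over the tested probes, and 2.50% of the tested probes were then lower. Probes at 0 in psah2 are missing from these shares: with zeros set to the lowest value above 0 on their array, which brings in all 3439 probes, 11.8% were lower than MIC60, at a log2 difference of -2.92. With each array centred on its median it was -2.36 beside a median of -0.21.

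MIC60 was also among the steadier probes of the WT arrays. Its coefficient of variation (SD over mean) among the 6 WT arrays was 8.30%, against a median of 15.4% over the 2908 probes above 0 on all WT arrays. In psah2, where the probe was dimmer, it was 38.2%. The median is over probes of all intensities, and probes about as bright as MIC60 were not compared apart. Replicates 5 and 6, the lowest for MIC60 in WT, were also the WT arrays of lowest median intensity (0.304 and 0.305). Its position within those arrays was above 94.9% and 94.8% of the probes, close to that on the other 4.

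The 3 single-gene probes whose pattern over the 12 arrays was most like that of MIC60 were those of AT3G52070, AT2G27290 and AT4G31530. Likeness was the root-mean-square difference between normalized log2 profiles, each centred on its own mean, over 12 arrays. It was 0.31, 0.34 and 0.39, where the median over the 524 probes compared was 1.47. All 3 were lower in psah2 than in WT, with deposited means of 3.72 ± 0.76 in WT and 0.325 ± 0.060 in psah2 for AT3G52070, 39.6 ± 2.4 and 6.84 ± 0.22 for AT2G27290, and 54.3 ± 8.7 and 7.85 ± 2.11 for AT4G31530 (SD over 6 arrays). As the 2 groups make up most of each profile, this likeness is mainly that of the difference between them.

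The 24 kDa subunit belongs to the arm of complex I that reaches into the matrix and takes electrons from NADH, and it carries an iron-sulfur cluster. Its WT intensities were 0.0745, 0.0353, 0.182, 0.110, 0.123 and 0.0837 on replicates 1 to 6. It was listed at 0 on all 6 psah2 arrays. The WT values differed among themselves by up to 5.14 times, with a mean of 0.101 ± 0.050 (SD, n = 6) and a coefficient of variation of 49.1%, higher than that of 97.5% of the probes above 0 on all WT arrays. No fold change is given for a group at 0.

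ETFQO, the electron-transfer flavoprotein:ubiquinone oxidoreductase, gave WT intensities of 0.106, 0.176, 0.102, 0.0894, 0.0620 and 0.0541. It too was listed at 0 on all 6 psah2 arrays. Its WT mean was 0.0983 ± 0.0434 (SD, n = 6), with a coefficient of variation of 44.2%. The highest WT value was 3.25 times the lowest, so that the 24 kDa subunit and ETFQO were the 2 most variable of the 5 genes in WT.

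AT4G31930 belongs to a family of acidic proteins named after the yeast protein Mam33, which sits in the mitochondrial matrix. Its WT intensities were 0.263, 0.339, 0.325, 0.249, 0.315 and 0.271, and all 6 psah2 values were 0. The WT mean was 0.294 ± 0.037 (SD, n = 6). With a coefficient of variation of 12.7% it was measured in WT about as evenly as the middle of the array, where the median was 15.4%.

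These 3 genes differed in where they stood in WT relative to the larger share of zeros in psah2. At most 22.5% of the probes were at 0 on a psah2 array. AT4G31930 stood above 37.0% to 51.5% of the probes in WT, higher than that share on all 6 arrays. The 24 kDa subunit stood above 14.9% to 29.5% and passed the share on 2 of 6 WT arrays, and ETFQO stood above 16.4% to 26.9% and passed it on 1 of 6. Of these 3, only AT4G31930 stood above the psah2 share of zeros on every WT array. MIC60 and AT5G06410 did so too, and AT5G06410 was still at 0 on 2 psah2 arrays. Whether a position in WT carries over to the psah2 arrays was not tested.

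**Figure D2:**
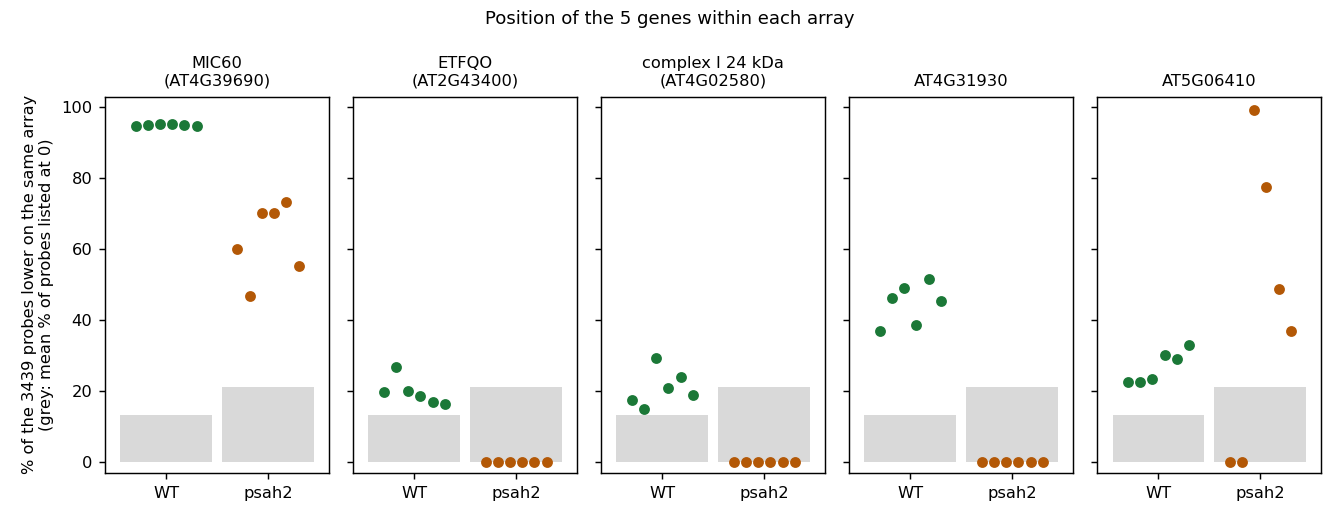
Percent of the 3439 probes that were lower than the gene on the same array, for 6 WT and 6 psah2 arrays (1 point per array), with grey bars for the mean percent of probes listed at 0 in the group. MIC60 lies between 94.8 and 95.4 in WT and between 46.8 and 73.2 in psah2, while ETFQO and the 24 kDa subunit lie in WT near the top of the psah2 grey bar.

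Zeros on all psah2 arrays were uncommon among probes measured in WT. Of the 2908 probes above 0 on all 6 WT arrays, 66 were at 0 on all 6 psah2 arrays, or 2.27%, and among 1-gene probes these were 14 of 584, or 2.4%. Among the 810 probes whose WT mean lay within the range of these 3 genes, from 0.0983 to 0.294, they were 35, or 4.32%. ETFQO (0.0983) and the 24 kDa subunit (0.101) lay at the low end of that range, so this share is not one for probes of their own intensity. The 66 probes include these 3 genes. In the other direction, 1 of 2146 probes above 0 on all psah2 arrays was at 0 on all WT arrays, or 0.0466%. Whether the zeros reflect the transcript or the different spread of intensities on the psah2 arrays was not tested. None of the 3 entered the fit, which needed at least 4 values above 0 in each group.

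AT5G06410 behaved unlike the other 4. It is a J-domain protein; its yeast counterpart Jac1 brings the loaded iron-sulfur scaffold to a mitochondrial Hsp70 chaperone. The WT intensities were even, at 0.135, 0.138, 0.132, 0.184, 0.160 and 0.188, with a mean of 0.156 ± 0.025 (SD, n = 6). On the psah2 arrays they were 0, 0, 16.5, 0.330, 0.0928 and 0.0527. In deposited intensity 2 psah2 arrays thus lay above every WT array and 4 below. By position within the array the tally differed: the 4 psah2 arrays above 0 stood above 99.2%, 77.5%, 48.7% and 37.1% of the probes, all higher than the 22.6% to 33.0% of the WT arrays, and the other 2 were at 0.

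A single array, psah2 replicate 3, set the mean of AT5G06410 in the mutant. Its value was 49.8 times that of the next psah2 array and stood above 99.2% of the probes on that array. The psah2 mean was 2.82 ± 6.68 (SD, n = 6) with replicate 3, and 0.0952 ± 0.1371 (SD, n = 5) without it, which lies below the WT mean. Such single values were rare: 22 of 3439 probes, or 0.64%, had 1 psah2 array at an intensity of 1 or more and at least 10 times every other psah2 array, 4 of them on replicate 3 and 9 on replicate 4, and in WT 3 probes did so.

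The fitted difference of AT5G06410 used the 4 psah2 arrays above 0 and was 2.91 on the log2 scale (SE 1.14). From the 3 arrays left without psah2 replicate 3 it was 1.38. With zeros set to the lowest value above 0 on their array, so that all 6 psah2 arrays counted, it turned to -0.46 (SE 2.84). Before normalization that floor was 1.55e-05 on psah2 replicate 1 and 5.80e-06 on replicate 2, and the value depends on it. The direction of AT5G06410 in psah2 was therefore not settled by these arrays. The 3 single-gene probes most like it, AT1G01500, AT4G38490 and AT5G39410, were at root-mean-square differences of 1.64, 1.66 and 1.74 over 10 arrays, where the median over 452 probes was 2.42, so none followed it closely.

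**Figure D3:**
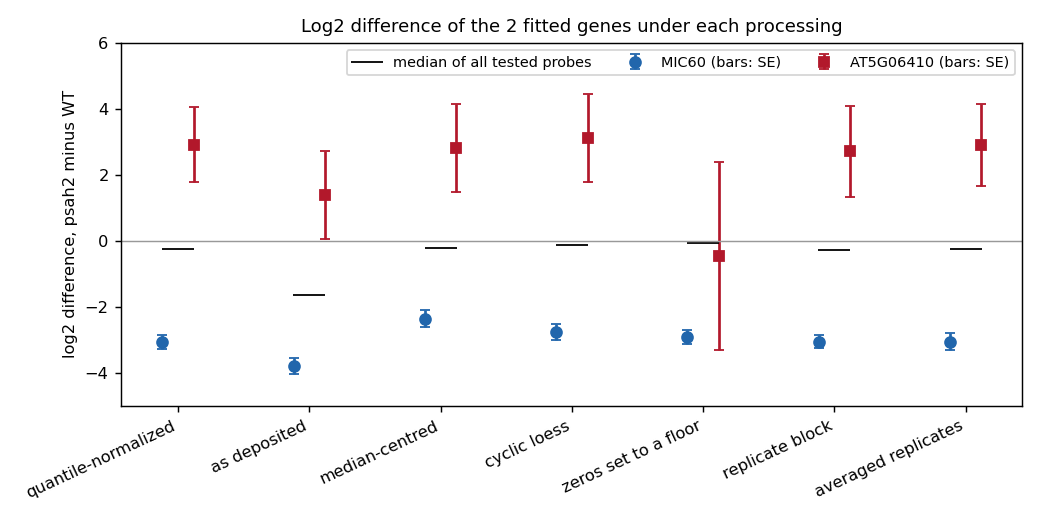
Log2 difference, psah2 minus WT, of MIC60 and AT5G06410 (bars, SE) with the median of all tested probes (black dashes) under 7 ways of processing the same arrays. MIC60 stays between -3.79 and -2.36; AT5G06410 runs from -0.46 with zeros set to a floor to 3.11 with cyclic loess.

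Arrays with consecutive replicate numbers differed less than other WT arrays for 81.2% of the 2908 probes above 0 on all WT arrays, and for 77.9% after normalization. The array medians were also shared by consecutive WT arrays. For the 5 genes the sizes varied. In deposited intensity, the median absolute log2 difference between replicates 1 and 2, 3 and 4, and 5 and 6 was 0.03 for MIC60, against 0.21 between the other pairs of WT arrays. For ETFQO it was 0.20 against 0.78, for the 24 kDa subunit 0.72 against 0.92 and for AT5G06410 a nearly equal 0.24 against 0.26. AT4G31930 went the other way, with 0.37 against 0.19. After normalization the values of AT5G06410 were 0.28 against 0.64 and those of AT4G31930 0.48 against 0.29. In psah2 both zeros of AT5G06410 were on replicates 1 and 2 and its 2 highest values on replicates 3 and 4. Treating each array as separate may thus understate the error of these levels.

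Few other mitochondrial genes could be set beside them. Of 156 other genes listed for complexes I to IV, the ATP synthase, alternative electron routes, the ETF pathway, inner membrane scaffolds, iron-sulfur assembly, the glycoprotein family, the tricarboxylic acid cycle and carriers, 4 had a 1-gene probe. A search of gene names added 2 subunits of the plastid NDH complex, NdhS and NdhN, which are no mitochondrial proteins. Of the 6 probes 3 could be tested, of which 1 rose and 2 fell in psah2 (limma, Benjamini-Hochberg adjusted p below 0.05); without the plastid subunits 1 rose and 1 fell. Over all 2643 tested probes 61.5% were called, 25.2% higher and 36.2% lower, and 3 or fewer probes are too few to be read against these shares. The median log2 difference of the 3 was -1.63, the value of NdhS itself, and without the plastid subunits it was -0.34, beside -0.26 over all tested probes.

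GLDH (AT3G47930), the last enzyme of ascorbate synthesis, which sits in the inner membrane and is needed to assemble complex I, fell. Its deposited intensities were 0.199, 0.193, 0.224, 0.226, 0.233 and 0.194 in WT. In psah2 they were 0.00574, 0.0110, 0.0330, 0.0248, 0 and 0, without overlap. On the 4 psah2 arrays above 0 its log2 difference was -1.66 (SE 0.41, limma, adjusted p = 0.00494), and its position went from above 28.8% to 40.0% of the probes in WT to above 0% to 32.8% in psah2. The call was lost with zeros set to a floor (log2 difference -3.99, SE 1.92, limma, adjusted p = 0.116) and with consecutive replicates averaged (limma, adjusted p = 0.0551). Before normalization the floor was 5.80e-06 to 0.000196 on psah2 arrays, where the lowest GLDH value above 0 was 0.00574. With the floor the difference grew and its SE widened.

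AT5G47890, held under complex I in the list, was measured on all 12 arrays. Its deposited intensities were 0.274, 0.270, 0.323, 0.332, 0.198 and 0.243 in WT and 0.191, 0.165, 0.253, 0.200, 0.161 and 0.171 in psah2. The WT mean was 0.273 ± 0.050 and the psah2 mean 0.190 ± 0.035 (each SD, n = 6), lower in psah2 by less than the array medians were. After normalization it therefore rose, by 0.99 on the log2 scale (SE 0.15, limma, adjusted p = 9.77e-05), but it turned to -0.52 in the values as deposited (SE 0.16, limma, adjusted p = 0.00833). With consecutive replicates averaged the adjusted p of the normalized difference was 0.0141 (limma). The position of AT5G47890 rose from above 35.6% to 49.3% of the probes in WT to above 62.2% to 73.0% in psah2. The pair of complex I genes differed in psah2: the 24 kDa subunit was at 0 on every array and AT5G47890 was above 0 on every array. They also differed in WT, where the 24 kDa subunit had a mean of 0.101 and AT5G47890 one of 0.273. The difference between them was not tested.

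The other 2 listed genes were dim. AT5G02050, held under the glycoprotein family of AT4G31930, was at 0 on 5 WT and 3 psah2 arrays and reached at most 0.0281, and AT5G47030 was at 0 throughout. Neither could be tested. Of the plastid NDH subunits, NdhS fell from a WT mean of 6.11 ± 0.79 to a psah2 mean of 2.13 ± 0.31 (each SD, n = 6; log2 difference -1.63, SE 0.11, limma, adjusted p = 6.91e-08), which was lost with median-centred arrays (-0.10, limma, adjusted p = 0.508). With consecutive replicates averaged the adjusted p of NdhS was 0.00151 (limma). NdhN was at 0 on 3 WT and 2 psah2 arrays.

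**Figure D4:**
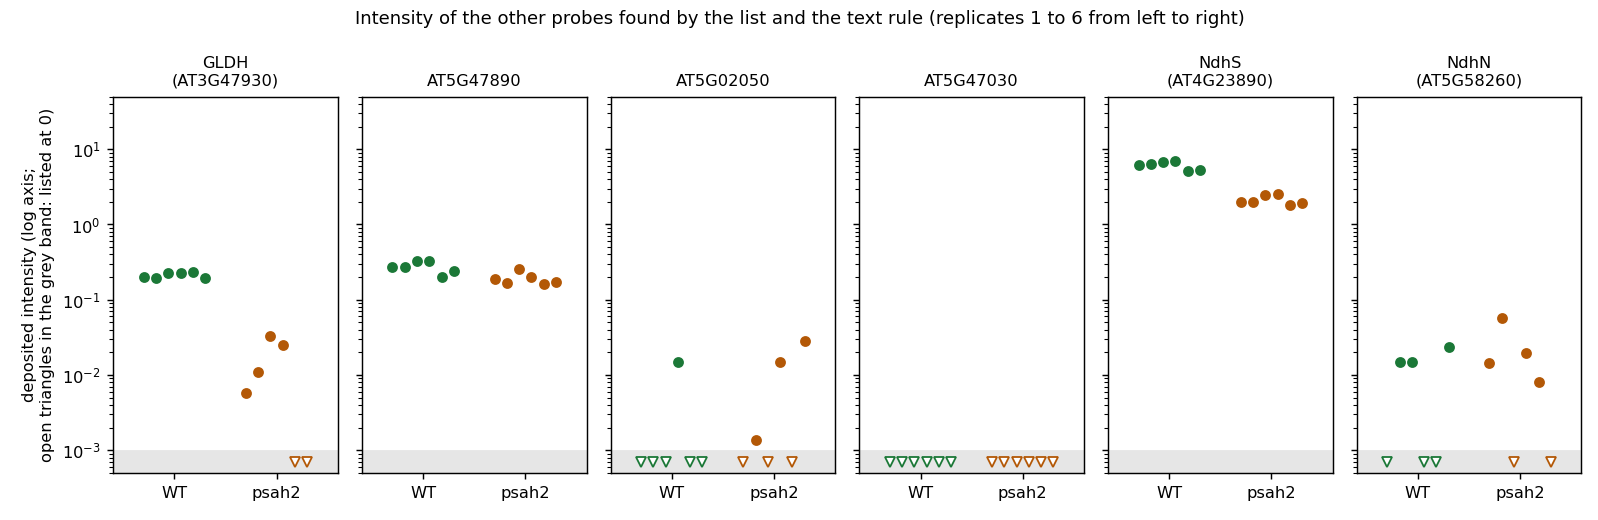
Deposited intensity (log axis) of the 4 other listed genes and the 2 plastid NDH subunits on each of the 6 WT and 6 psah2 arrays, with values at 0 as open triangles in the grey band. GLDH lies at 0.193 to 0.233 in WT and at 0 to 0.0330 in psah2, AT5G47890 is above 0 on all 12 arrays, and AT5G47030 is at 0 on all of them.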

How the data were processed

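The authors deposited 1 table of 3439 probes with 1 intensity per array, linear, from 0 to 100, per the values themselves; background correction and scaling are not given in the sources used here. Groups and replicate numbers came from the sample titles. Columns outside the 12 samples numbered 0. Probes were named from the platform annotation and a RefSeq table of TAIR10.1 genes, which matched 690 of 692 probes with 1 gene.

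Intensities were log2-transformed, with values at 0 left missing, and quantile-normalized. A probe with at least 4 values in each group entered a linear model in limma (version 3.58.1, R 4.3.3) with moderated statistics and no covariate. Tests were 2-sided, and p-values were adjusted over 2643 probes by Benjamini-Hochberg at a threshold of 0.05. The fit was tested on simulated data, drawn as independent normal values. Zeros and variation shared between arrays were not covered by that test. The 5 genes and the lists were chosen with earlier results of these data known. Named are the 5 genes, the called other mitochondrial genes and the 3 probes most like each fitted gene. Naming the 3 untested probes was decided with their values known. The number of arrays limits the precision. Alternatives were other normalizations, filters, a floor for zeros, the replicate number as a block, averaged replicates and each array left out.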

Additional observations from a re-analysis of the deposited data

Results flagged for a closer look

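Groups of 6 deposited intensities were searched for an array apart from the other 5. For normally distributed values chance gives this in about 1 of 20 groups. Deposited intensities are linear and hold many zeros, so the count below is not read against that rate. With 5 arrays at 0, as for AT5G02050 in WT, any value above 0 is flagged. Of the 17 groups with any spread, 3 held one. In psah2, replicate 3 was at 16.5 for AT5G06410, where the next array was at 0.330. In WT, replicate 4 was at 0.0150 for AT5G02050, where the other 5 were at 0. In psah2, replicate 2 was at 0.0564 for NdhN (AT5G58260), where the next was at 0.0195.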

How the results depend on the processing

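The log2 difference of MIC60 (-3.06) stayed negative under every alternative run and moved by more than the replicate spread to -3.79 as deposited and -2.36 with median-centred arrays; leaving out 1 array gave -3.15 to -2.84. That of AT5G06410 (2.91) turned to -0.46 with zeros set to a floor; leaving out 1 array gave 1.38 to 3.74, from 1.38 without psah2 replicate 3 to 3.74 without psah2 replicate 6; without psah2 replicate 3, 4, 5 or 6 only 3 psah2 values remained, below the minimum, and these values were added after the data were seen, as differences of means with no fit. Of the 2643 tested probes, 667 were higher and 958 lower, and 251 and 2049 as deposited, where their median was -1.64; leaving out 1 array gave 620 to 659 and 873 to 926. Of the other mitochondrial genes, counted with the plastid NDH subunits, 1 was higher and 2 lower. The higher count was 0 as deposited, where AT5G47890 turned to -0.52. It was 2 with at least 2 values per group or with averaged replicates, which tested 4 probes. The probe added there was NdhN, a plastid NDH subunit and no mitochondrial protein, which was at 0 on 3 WT and 2 psah2 arrays. The lower count was 1 with median-centred arrays, with zeros set to a floor, with only probes above 0 on all arrays, with averaged replicates and without the plastid NDH subunits (left out after the data were seen); leaving out 1 array gave 1 to 2 lower and 1 to 1 higher, with 1 lower without psah2 replicate 1, 2, 3 or 4, when GLDH had too few values. NdhS was the probe that lost its call with median-centred arrays. GLDH lost its call with zeros set to a floor and with averaged replicates. Its zeros in psah2 kept it out of the probes above 0 on all arrays. The cause of the remaining changes was not tested. With the replicate number as a block, MIC60 had -3.06 and AT5G06410 2.71, and it ended no call of the other mitochondrial genes. Same-numbered arrays correlated in their deviations from the group means with r from 0.06 to 0.17, above 0.1 for 4 of 6 numbers; for all 6 this exceeded the highest r with another number (0.02 to 0.09). This is a hint from the data that numbers mark something shared. The block was kept as an alternative, since not every r passed 0.1 and the labels state no pairing. Of the 5 genes 3 had no psah2 value above 0, which leaves their difference without a size.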
